A study of Arabidopsis thaliana with 18 samples.

Results

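The comparison is that of the *fc2* mutant of *Arabidopsis thaliana* with wild type (wt) in constant (24 h) light, the permissive condition of the study. It rests on the 3 *fc2* and the 3 wt leaf libraries whose labels give constant light, 6 of the 18 libraries in the series. The *fc2* plants carried the *fc2-1* allele, a T-DNA insertion in the 5′ leader of *FC2*, and wt was Columbia-0. Both groups stayed in 24 h light until harvest at 19 days by the labels (18 in the methods text), and leaves were taken 1 h after subjective dawn. Each library pooled the leaves of 3 plants. The same genotypes after 17 days of 24 h light and 2 days of 16 h light and 8 h dark (cycling light, 3 libraries each) were used to test whether a difference depended on the light. The double mutant *fc2 pub4* in 24 h light, which carries *fc2-1* and *pub4-6*, is given for a few levels only, as it shares the wt libraries. Since *fc2-1* is a single insertion line, an effect of less *FC2* and an effect of the insertion on the genes around it cannot be told apart. Total counts per library were 30100674 to 34331853 in *fc2* and 27124449 to 30205043 in wt.

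*FC2* encodes a plastid ferrochelatase, the enzyme that puts iron into protoporphyrin IX to make heme. The same porphyrin is the substrate of magnesium chelatase, which opens the chlorophyll branch of tetrapyrrole synthesis. Free protoporphyrin IX passes light energy on to oxygen and gives singlet oxygen, above all when a dark phase ends, which is why *fc2* is studied in day and night cycles and why constant light serves as its permissive state. Heat shock factors (HSFs) bind repeats of the letters GAA and TTC and induce chaperones, the proteins that fold, hold or pull apart damaged clients. UDP-glycosyltransferases (UGTs), glutathione S-transferases and reductases conjugate or reduce hormones and reactive compounds. The plastid-encoded RNA polymerase transcribes the photosynthesis genes of the plastid and works only with nuclear-encoded partners, the PEP-associated proteins (PAPs).

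The genotype labels were checked first. *FC2* (AT2G30390, chr2:12950954-12954148, minus strand of the RefSeq TAIR10.1 annotation) was measured at 34.7, 31.4 and 30.0 CPM (read counts scaled to library size and to edgeR's TMM factors) in the *fc2* libraries, against 174, 153 and 131 CPM in wt. All 3 *fc2* libraries lay below all wt libraries, at 21.0% of the wt mean (log2FC −2.25, SE 0.11, padj = 1.25e-05). Here padj is the p-value of edgeR's quasi-likelihood test after Benjamini-Hochberg adjustment over all genes tested. *FC1*, the other ferrochelatase gene of the plant, stood at 63.5, 64.1 and 55.0 CPM in *fc2* and at 55.5, 60.5 and 55.0 CPM in wt (log2FC 0.09, SE 0.08, padj = 0.629). In *fc2 pub4*, *FC2* had 58.3, 54.9 and 62.4 CPM by library size alone. The 6 leaf markers fixed for the label check (*RBCS1A*, *RCA*, *CA1*, *GAPA*, *PRK*, *GLO1*) summed to 36575, 35395 and 30708 CPM in *fc2* and 36368, 38437 and 33050 CPM in wt, while the 7 root markers summed to 25.03 to 29.6 CPM in *fc2* and 29.9 to 45.5 CPM in wt.

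The largest log2FC among the called genes lay beside the insertion. *OFP17* (AT2G30395), a member of the OVATE family of growth-related transcriptional repressors, is annotated on the same strand upstream of *FC2* (chr2:12954174-12955288), 25 bases away. It had 209, 169 and 226 CPM in *fc2* and 1.4, 1.11 and 1.02 CPM in wt, a log2FC of 7.40 (SE 0.16, padj = 9.48e-09). Each *fc2* library was thus more than 100 CPM above every wt library, and in *fc2 pub4* the gene had 260, 246 and 255 CPM by library size alone. The stretch between the 2 annotated genes, shown because it is all that separates the most increased called gene from the disrupted one, reads as follows on their strand (chr2:12954149-12954173).
between OFP17 and FC2: aactgtgtggacacgtgtggttctc
Among the 5 annotated genes on each side of *FC2*, no other passed a padj of 0.01. On the *OFP17* side, *OFP2*, *KIS*, *ETC2* and *TCL2* had a log2FC of 0.47, −0.17, 0.44 and −0.00. On the other side, AT2G30350, *SIP4* and *CHAL* had −0.05, −0.48 and −0.08, while *LBD13* and AT2G30380 were too low to be tested. The strand setting of the authors' counting is not given in the sources used here, so that reads from either strand of *OFP17*, or reads that run on from one gene into the other, cannot be told apart.

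Of 19664 genes tested, 15 (0.0763%) rose and 1 (0.00509%) fell past the cutoffs of the study (absolute log2FC above 1.5 and padj under 0.01; called DEGs here). With no limit on fold change, 47 genes (0.239%) were higher and 15 (0.0763%) lower in *fc2* at a padj under 0.01, 62 in all (0.315%). The 62 include chaperones and their regulator *HSFA2*, 7 UGT genes, genes of plastid gene expression and, among the lower ones, *FC2* and the transcription factor *GLK1*. For all 62 genes the 3 *fc2* libraries lay on one side of the 3 wt libraries, as they did for 2272 (11.6%) of all genes tested in the higher and 1857 (9.44%) in the lower direction. The median gene had a log2FC of −0.00, and the median absolute log2FC was 0.11. The calls rest on all 6 libraries. Without wt replicate 1, *OFP17* and *FC2* were the only genes at a padj under 0.01, and without wt replicate 2 *HSFA2* was the only other. Without wt replicate 3, 35 genes were called, 22 of them among the 62, and without *fc2* replicate 1, 2 or 3 the calls numbered 22, 48 and 18, with 19, 33 and 18 among the 62. The sign of log2FC was kept in all 372 of these values. That follows from groups that do not overlap, so it adds no support to the calls. DESeq2 on the same libraries called 513 of 19664 genes, 362 higher and 151 lower, the 62 among them. In edgeR, 8.41% of all genes were higher and 6.8% lower at an unadjusted p under 0.05. By sign alone, log2FC was above 0 in 9586 genes and below 0 in 10078. These are the backgrounds for the list counts below.

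**Figure D1:**
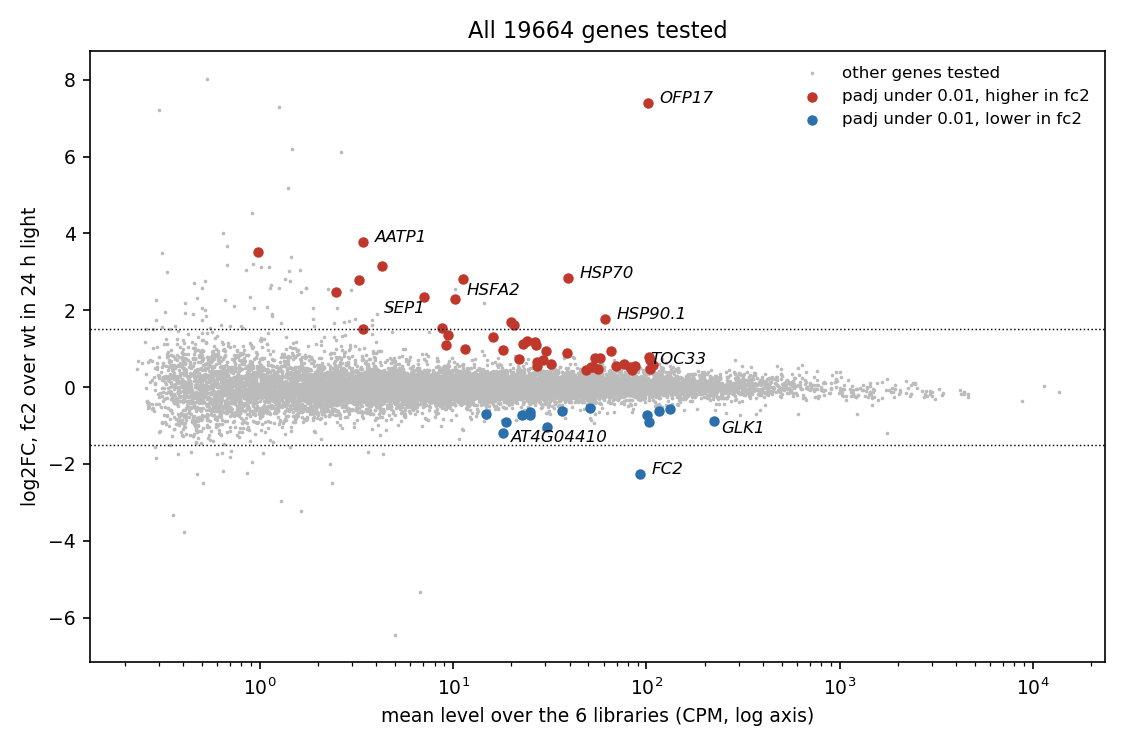
Each point is a gene, with its mean level over the 6 libraries of 24 h light (CPM, log axis) against its log2FC of *fc2* over wt. Red and blue points mark the 47 higher and 15 lower genes at a padj under 0.01, the dotted lines mark the log2FC cutoff of 1.5, and *OFP17* has the largest log2FC of the called genes (7.40). Grey points near its height are uncalled genes with no or almost no counts in wt, such as *TA1* and *MS2*.

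Chaperones of the heat shock response formed the most visible group among the DEGs. *HSFA2* (AT2G26150), a heat shock factor that is itself induced by heat, had 20.8, 16.8 and 13.5 CPM in *fc2* and 3.16, 4.53 and 2.67 CPM in wt. Its lowest *fc2* library was above its highest wt library by more than the whole wt range (log2FC 2.3, SE 0.21, padj = 0.00160). *HSP70* (AT3G12580), a heat-inducible cytosolic HSP70, had 92.97, 56.5 and 56.9 CPM in *fc2* and 10.6, 11.0 and 7.26 CPM in wt (log2FC 2.84, SE 0.22, padj = 7.69e-04). *HSP90.1* (AT5G52640), the heat-inducible cytosolic HSP90, had 127, 83.3 and 74.0 CPM in *fc2* and 29.0, 28.6 and 25.5 CPM in wt (log2FC 1.77, SE 0.17, padj = 0.00199). In these 3 genes *fc2* replicate 1 was the highest library, and the groups did not overlap.

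Small heat shock proteins of the mitochondrion and of the cytosol also rose. *HSP23.5* (AT5G51440), the mitochondrial one, had 27.9, 16.2 and 15.02 CPM in *fc2* and 2.02, 5.01 and 1.47 CPM in wt (log2FC 2.80, SE 0.38, padj = 0.00835). *HSP17.8-CI* (AT1G07400), of cytosolic class I, had 8.88, 4.58 and 3.67 CPM in *fc2* and 0.619, 0.928 and 0.941 CPM in wt (log2FC 2.79, SE 0.37, padj = 0.00835). The plastid *HSP21* had no count in any of the 6 libraries. *AtCDC48B* (AT3G53230), an AAA-type ATPase related to the segregase that pulls ubiquitinated proteins out of complexes and membranes, had 37.96, 26.6 and 27.3 CPM in *fc2* and 9.70, 10.5 and 7.90 CPM in wt (log2FC 1.71, SE 0.15, padj = 0.00160). *Fes1A* (AT3G09350), a nucleotide exchange factor of HSP70 and no DEG, was chosen after its values were seen. It was higher too, with 27.8, 26.1 and 27.5 CPM in *fc2* against 18.7, 14.4 and 16.2 CPM in wt (log2FC 0.72, padj = 0.00835).

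As whole lists the chaperone families moved unevenly. Of 21 large chaperones and heat-induced cochaperones, all of which could be tested, 2 rose at a padj under 0.01 (*HSP70* and *HSP90.1*) and none fell, and the median log2FC was 0.30. At an unadjusted p under 0.05, 10 were higher and none lower, against 8.41% higher and 6.8% lower over all genes. *HOP3*, a cochaperone that links HSP70 and HSP90, missed the cutoff with 13.7, 7.52 and 11.6 CPM in *fc2* and 4.396, 3.97 and 3.88 CPM in wt (log2FC 1.43, padj = 0.0111). *HSP101*, the disaggregase of heat tolerance, had a log2FC of 0.63 (padj = 0.0217), and the constitutive *HSC70-1*, the most abundant member, one of 0.12 (padj = 0.632). The 19 small heat shock proteins summed to 158, 131 and 118 CPM in *fc2* and 101, 107 and 94.8 CPM in wt. Of these, 14 passed the filter on low counts and 2 rose. The most abundant member, *HSP18.5*, had a log2FC of 0.10 (padj = 0.749). *HSP17.6II*, a cytosolic class II protein, had 2.48, 1.42 and 1.11 CPM in *fc2* and 0.228, 0.0743 and 0.226 CPM in wt. No test result is given for *HSP17.6II*, as it could pass the filter on low counts only through *fc2*. Of the 15 heat shock factors tested, of 21 listed, *HSFA2* was the only one at an unadjusted p under 0.05, and their median log2FC was 0.09.

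These heat shock calls differed in how many libraries they needed. *HSFA2* kept a padj under 0.01 without any library except wt replicate 1 (0.0123). *HSP70*, *HSP90.1* and *AtCDC48B* kept it without any *fc2* library and without wt replicate 3, and had 0.0110, 0.0169 and 0.0123 without wt replicate 1 and 0.0106, 0.0222 and 0.0113 without wt replicate 2. *HSP23.5* and *HSP17.8-CI* were over 0.01 in all 6 such fits (0.0109 to 0.0512 and 0.0103 to 0.0503), and so was *Fes1A* (0.0123 to 0.0430).

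**Figure D2:**
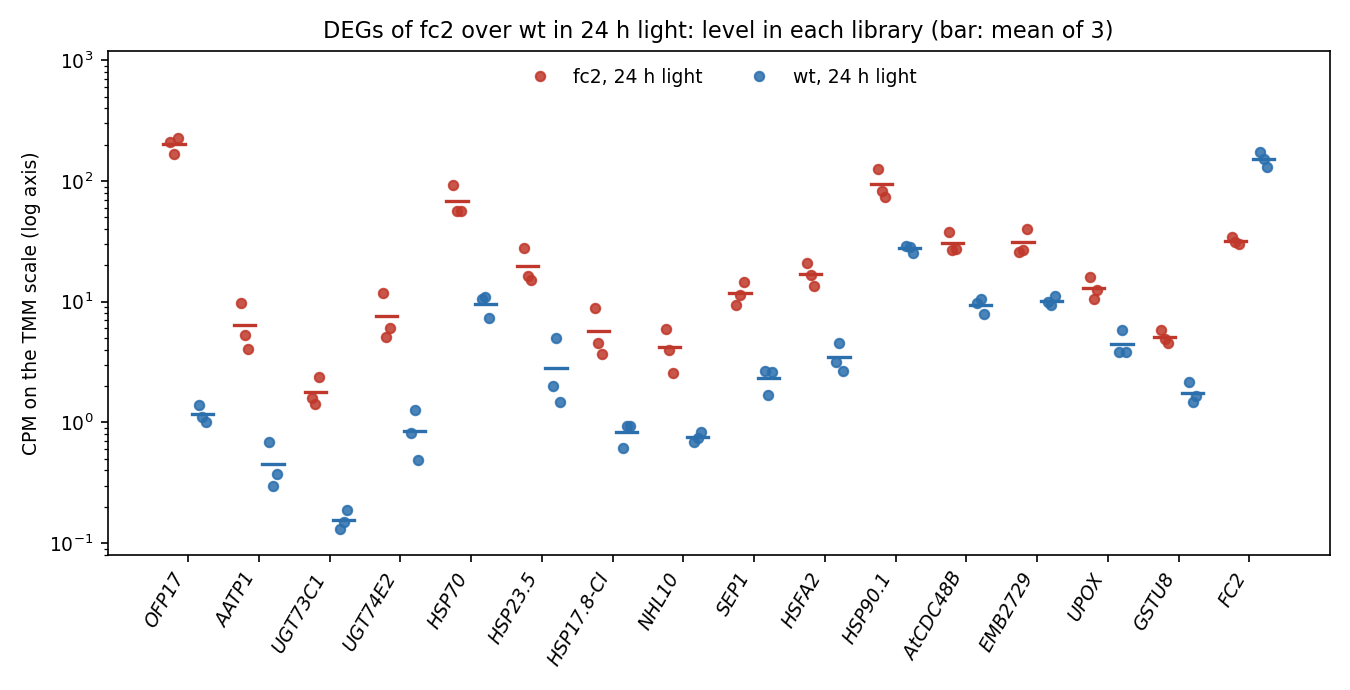
Level of each of the 16 DEGs in the 3 *fc2* (red) and 3 wt (blue) libraries of 24 h light, as CPM on a log axis, with bars at the group means. In every gene the libraries of the groups are apart, by most in *OFP17* (169 to 226 CPM in *fc2* against 1.02 to 1.4 CPM in wt).

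The heat shock element was looked for next to the annotated starts of the called genes. In windows from 250 bases before to 50 bases after the gene start, the letters GAANNTTCNNGAA (N is any base, both strands read) were found in 107 of 19565 genes (0.547%). They were found in 3 of the 47 higher genes and in 0 of the 15 lower ones. The 3 matches are shown because these genes include the regulator and a chaperone described above, with the match in capitals and 8 bases on either side, in the sense of the gene.
HSFA2: ttagtaacGAAGTTTCTGGAAcattgtct
HSP70: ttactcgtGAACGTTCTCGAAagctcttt
AtCDC48B: atttacacTTCTCGAATCTTCtttttctt
They lie at chr2:11135528-11135556 (plus strand) for *HSFA2*, chr3:3993846-3993874 (minus strand) for *HSP70* and chr3:19723346-19723374 (plus strand) for *AtCDC48B*. The first base of the match is 88 bases upstream of the annotated start in *HSFA2*. It is base 21 of the gene, counted from 1 at the annotated start, in *HSP70* and base 5 in *AtCDC48B*, where the match is on the opposite strand. A match is a string of letters and not a binding site.

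Enzymes that attach sugars to hormones and foreign compounds were called at several loci. Of 20 UGTs of stress responses, 17 could be tested, 6 rose at a padj under 0.01 and none fell, against 0.239% of all genes that rose. *UGT74E2* (AT1G05680), which glucosylates the auxin indole-3-butyric acid, had 11.9, 5.11 and 6.04 CPM in *fc2* and 0.814, 1.26 and 0.489 CPM in wt (log2FC 3.16, SE 0.39, padj = 0.00677). *UGT73C1* (AT2G36750) had 1.59, 1.42 and 2.36 CPM in *fc2* and 0.130, 0.149 and 0.188 CPM in wt, where 4 to 5 counts stood behind each value (log2FC 3.50, SE 0.39, padj = 0.00411). At these wt levels it passed the filter on low counts only through *fc2*, so its place among the 6 adds no support to the group. The other members were more abundant and changed less. *UGT73B1* (AT4G34138) had 21.1, 20.8 and 26.9 CPM in *fc2* and 8.499, 9.40 and 9.97 CPM in wt (log2FC 1.31, padj = 0.00160). *UGT74F2* (AT2G43820), an enzyme of salicylic acid glucosylation, had 39.5, 29.7 and 41.4 CPM in *fc2* and 13.2, 16.2 and 19.8 CPM in wt (log2FC 1.17, padj = 0.00835). *UGT75B1* and *UGT73C5*, which act on small acids and on brassinosteroids, had a log2FC of 1.1 (padj = 0.00273) and 0.96 (padj = 0.00835).

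*UGT84A3* (AT4G15490), a hydroxycinnamate glucosyltransferase outside that list, had 37.5, 41.0 and 40.9 CPM in *fc2* and 19.4, 21.72 and 21.67 CPM in wt (log2FC 0.93, padj = 0.00128). The summed level of the 20 listed UGTs was 184, 162 and 176 CPM in *fc2* and 101, 107 and 93.7 CPM in wt, with no overlap. *UGT76E11* missed the cutoff (log2FC 0.56, padj = 0.0153) and *UGT73B2* had a log2FC of 0.22 (padj = 0.617). Several UGT73B, UGT73C and UGT74 genes are close copies that stand side by side, and how reads that fit more than 1 copy were counted is not given. *UGT73B1* and *UGT84A3* kept a padj under 0.01 without any *fc2* library and without wt replicate 3 (0.0109 to 0.0176 without wt replicate 1 or 2). *UGT73C5* kept it in none of the 6 fits with a library left out (0.0109 to 0.0503), *UGT73C1* in 1 (up to 0.0361), and *UGT74E2*, *UGT74F2* and *UGT75B1* in 2 each (up to 0.0425, 0.0536 and 0.0222).

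Other enzymes of detoxification rose beside them. *GSTU8* (AT3G09270), a tau-class glutathione S-transferase, had 5.84, 4.91 and 4.52 CPM in *fc2* and 2.15, 1.49 and 1.66 CPM in wt (log2FC 1.52, SE 0.20, padj = 0.00835), although no fit with a library left out kept it under 0.01 (0.0179 to 0.0460). It was the only one called of 20 tau-class genes tested, whose median log2FC was 0.12. The one with the largest log2FC, *GSTU9*, had 7.67, 3.53 and 3.24 CPM in *fc2* and 0.944, 2.86 and 0.414 CPM in wt (padj = 0.136). *AKR4C8* (AT2G37760), an aldo-keto reductase, had 42.1, 33.5 and 34.1 CPM in *fc2* and 16.1, 19.0 and 16.7 CPM in wt (log2FC 1.09, padj = 0.00199). *AER* (AT5G16970), an alkenal reductase chosen after its values were seen, had 67.8, 70.9 and 65.4 CPM in *fc2* and 43.5, 37.8 and 40.3 CPM in wt (log2FC 0.75, padj = 0.00199). Both reductases kept a padj under 0.01 except without wt replicate 1 (0.0169 and 0.0110) or 2 (0.0128 and 0.0185). *BGLU11* (AT1G02850), a beta-glucosidase, had 15.3, 10.7 and 14.4 CPM in *fc2* and 5.96, 4.196 and 5.72 CPM in wt (log2FC 1.35, padj = 0.00750, and up to 0.0361 with a library left out).

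Genes induced by mitochondrial stress were split. *AATP1* (AT5G40010), an AAA-type ATPase used as a marker of the mitochondrial retrograde response, had 9.76, 5.34 and 4.02 CPM in *fc2* and 0.684, 0.297 and 0.376 CPM in wt (log2FC 3.78, SE 0.41, padj = 0.00385). *UPOX* (AT2G21640), a mitochondrial protein induced by oxidative stress, had 16.0, 10.5 and 12.6 CPM in *fc2* and 3.84, 5.79 and 3.80 CPM in wt (log2FC 1.55, SE 0.20, padj = 0.00835). They were the only genes called of 18 tested in this list of 19, whose median log2FC was 0.05. The alternative oxidase *AOX1A*, the classical output of the response, had 68.9, 45.8 and 47.97 CPM in *fc2* and 43.0, 52.1 and 39.4 CPM in wt, so that its groups overlapped (log2FC 0.28, padj = 0.447). *TIM17-1*, an import subunit, had a log2FC of −0.70 (padj = 0.114). *AATP1* was over 0.01 without any 1 of the wt libraries (0.0106 to 0.0297), and *UPOX* was under it only without *fc2* replicate 2 (0.00603, and up to 0.0445 otherwise).

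The mitochondrial dysfunction motif, which NAC factors of this response bind, was searched in the same windows in its 2 usual forms. The letters CTTGNNNNNCAAG were found in 131 of 19565 genes (0.67%), among them 1 of the 47 higher genes, and CTTGNNNNNCACG in 83 (0.424%), among them 2 of the 47. The forms differ in 1 letter, so that no stretch is counted under both. Neither was found in the 15 lower genes or near the start of *AATP1*. The matches of the called genes are shown with capitals as above.
UPOX: tttagtaaCTTGCTCTCCAAGgagatcta
UGT74E2: ccgcacatCTTGGTCGCCACGgaacatag
HSP23.5: ttattttaCTTGGAGACCACGcagttcta
They lie at chr2:9254319-9254347 (plus strand), chr1:1704805-1704833 (minus strand) and chr5:20891045-20891073 (plus strand), with the first base of the match 51 bases upstream of the annotated start in *UPOX*, at base 14 of the gene in *UGT74E2* and 110 bases upstream in *HSP23.5*.

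Genes of plastid proteins, among them several of plastid gene expression, were among the higher genes. Of the 47 higher genes, 19 (40.4%) carry a word for plastid or chloroplast in their RefSeq annotation, *NHL10* included, against 2039 of 19586 nuclear genes tested (10.4%) and 2 of the 15 lower genes (13.3%). The shares count words and not plastid proteins. *FC2*, among the lower genes, and *EMB2729*, among the higher ones, lack the word, while the transcription factor *GLK1* carries it. *EMB2729* (AT3G20440, also *BE1*), a putative plastid branching enzyme needed for embryo development, was a DEG with 25.8, 26.9 and 40.2 CPM in *fc2* and 9.96, 9.43 and 11.1 CPM in wt (log2FC 1.61, SE 0.16, padj = 0.00257, and 0.0246 and 0.0282 without wt replicate 1 or 2). *EMB3120* (AT3G14900), another embryo-defective locus, had 29.3, 26.48 and 39.1 CPM in *fc2* and 13.5, 14.5 and 15.5 CPM in wt (log2FC 1.13, padj = 0.00576). *PAP6* (AT3G54090, also *FLN1*), a fructokinase-like PAP, had 72.4, 84.5 and 104 CPM in *fc2* and 42.6, 45.5 and 46.7 CPM in wt (log2FC 0.95, padj = 0.00576). In all of these *fc2* replicate 3 was the highest library.

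The remaining genes and lists of plastid gene expression were chosen after their values were seen, so their counts are descriptions. All 12 PAP genes had a log2FC above 0, with a median of 0.44. *PAP3*, *PAP6* and *PAP7* passed a padj of 0.01, and *PAP5* (log2FC 0.73) and *PAP12* (0.39) did not, at 0.0112 and 0.0151. Summed over the 12, the level was 1126, 1230 and 1349 CPM in *fc2* and 870, 862 and 852 CPM in wt, so that the lowest *fc2* library was well above the highest wt library. *PAP3* had 118, 116 and 156 CPM in *fc2* and 72.4, 77.2 and 76.7 CPM in wt, and *FLN2* (AT1G69200), the partner of *PAP6*, had 66.0, 65.2 and 85.7 CPM in *fc2* and 41.0, 44.7 and 41.7 CPM in wt (log2FC 0.77, padj = 0.00855). *PTAC13*, a NusG-like protein of the plastid nucleoid, had 121, 119 and 122 CPM in *fc2* and 84.3, 86.5 and 90.8 CPM in wt (log2FC 0.47, padj = 0.00835). *RHON1*, which takes part in plastid RNA cleavage, and *CPZ*, a chloroplast tRNase Z, had a log2FC of 0.58 and 0.66 and passed as well. *CS26* (AT3G03630), the plastid S-sulfocysteine synthase, had 43.2, 49.3 and 59.3 CPM in *fc2* and 25.2, 27.1 and 29.3 CPM in wt (log2FC 0.90, padj = 0.00699). *RFC3*, related to plastid ribosomal protein S6, had a log2FC of 0.71 (padj = 0.00576).

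Of 9 sigma factors and phage-type polymerases, 0 passed, with 3 higher by DESeq2 and a median log2FC of 0.26. At an unadjusted p under 0.05 in edgeR, 4 were higher and 0 lower, against 8.41% and 6.8% of all genes. *RPOTP*, the plastid phage-type polymerase, was nearest with 95.3, 96.5 and 116 CPM in *fc2* and 69.0, 71.3 and 65.4 CPM in wt (log2FC 0.58, padj = 0.0112). *SIG2* and *SIG6* had a log2FC of 0.29 and 0.27. Among 22 genes of plastid protein import, *TOC33* (AT1G02280), the main outer-envelope receptor GTPase of leaves, was the only one called. It had 105, 97.6 and 108 CPM in *fc2* and 71.1, 70.6 and 70.6 CPM in wt (log2FC 0.55, SE 0.06, padj = 0.00514). Of the 22, 20 had a log2FC above 0, 15 were higher and 0 lower at an unadjusted p under 0.05, and the median was 0.25. *TIC110*, *TIC40* and *TOC159* had a log2FC of 0.45, 0.41 and 0.21. None of these plastid calls held without wt replicate 1 or 2. The padj was up to 0.0410 for *PAP6*, 0.0535 for *PAP3*, 0.0387 for *PAP7*, 0.0523 for *FLN2*, 0.0535 for *PTAC13*, 0.0377 for *TOC33* and 0.0460 for *CS26*.

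The plastid genome itself was read at low depth in these libraries of polyadenylated RNA. Its loci took 0.0225 to 0.0387% of the counts in *fc2* and 0.0176 to 0.0227% in wt. They summed to 287, 223.2 and 377 CPM in *fc2* and 222.9, 210.0 and 179 CPM in wt, with the lowest *fc2* library within 1 CPM of the highest wt library. No plastid locus of the 61 tested passed a padj of 0.01 in edgeR, with 1 higher by DESeq2. At an unadjusted p under 0.05, 29 were higher and 0 lower, against 8.41% and 6.8% of all genes. The size of the difference leaned on *fc2* replicate 3. The median log2FC of the loci was 0.73, and it was 0.38 without that library and 0.57 to 0.91 without any other. Another 35 loci had no count in any of the 6 libraries. A different number of cells of a type and a different amount of RNA per cell cannot be told apart in such bulk leaf samples, here or in any other group.

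The regulator of chloroplast development *GLK1* (AT2G20570) went the other way. It had 159, 166 and 142 CPM in *fc2* and 277, 312 and 280 CPM in wt, with no library between 166 and 277 CPM (log2FC −0.90, SE 0.08, padj = 0.00160). It was chosen after its values were seen. Without wt replicate 1 or 2 its padj was 0.0110 and 0.0145, and with any other library left out it was under 0.01. Its paralogue *GLK2* had a log2FC of −0.28 (padj = 0.232). GLK proteins activate genes of light harvesting and chlorophyll synthesis, and these showed no called change in edgeR. DESeq2 called 1 of 13 genes of the chlorophyll branch and 2 of 14 trunk genes of tetrapyrrole synthesis, all higher. Of 20 antenna genes 0 passed in edgeR, and DESeq2 called 0. By sign alone 19 had a log2FC below 0 and 1 above, with a median of −0.18. At an unadjusted p under 0.05 in edgeR, 0 were higher and 1 lower. Their sum was 51665, 34410 and 47360 CPM in *fc2* and 34990, 48002 and 72517 CPM in wt. The groups overlapped, and the sum of wt replicate 3 was more than 2 times that of wt replicate 1. *LHCB1.3*, the most abundant, had a log2FC of −0.37 (SE 0.19) and *LHCB2.3*, the lowest by log2FC, −0.71 (SE 0.36).

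Among 1191 transcription factors tested, *GLK1* was the only one that fell and *HSFA2* and the MADS-box gene *SEP1* were the only ones that rose in edgeR at a padj under 0.01. DESeq2 called 15 higher and 10 lower. Over all 19664 genes tested, edgeR called 62 (0.315%) and DESeq2 362 higher and 151 lower. The shares among transcription factors are near these.

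**Figure D3:**
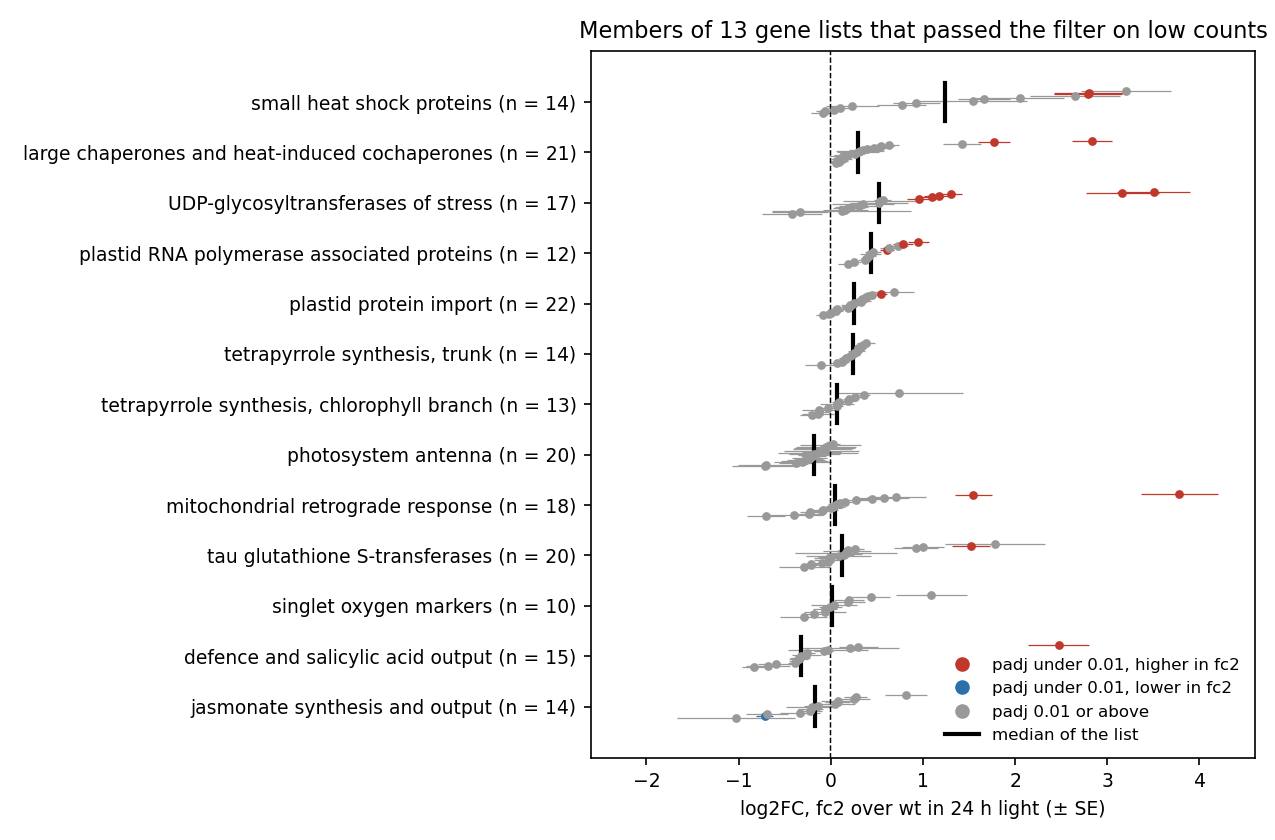
Points are the tested members of 13 gene lists, at their log2FC of *fc2* over wt in 24 h light with SE bars, in red or blue where padj was under 0.01. Black bars are list medians and the dashed line is the median of all genes tested (−0.00). The small heat shock proteins spread up to 3.2, the antenna genes lie between −0.71 and 0.03, and the 12 PAPs are all above 0.

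Genes of tetrapyrrole synthesis other than *FC2* differed little. Of 14 trunk genes, from glutamyl-tRNA to protoporphyrin IX, 0 passed a padj of 0.01 in edgeR, and the median log2FC was 0.24. Against 8.41% and 6.8% of all genes, 9 of the 14 were higher and 0 lower at an unadjusted p under 0.05. DESeq2 called 2 higher. Their sum was 3028, 3014 and 3157 CPM in *fc2* and 2543, 2743 and 2918 CPM in wt. *GSA2*, a glutamate-1-semialdehyde aminotransferase, had 264, 273 and 266 CPM in *fc2* and 209, 211 and 216 CPM in wt (log2FC 0.34, padj = 0.0241). *GBP*, which binds glutamyl-tRNA reductase, had a log2FC of 0.35 (padj = 0.0400), *HEMD* one of 0.38 (padj = 0.0742) and *HEMA1*, the main glutamyl-tRNA reductase, one of −0.11 (padj = 0.828). In the chlorophyll branch 0 of 13 passed (4 higher and 0 lower at an unadjusted p under 0.05 in edgeR, 1 higher by DESeq2, median log2FC 0.07). *CHLI2*, a subunit of magnesium chelatase, had the lowest padj (log2FC 0.36, padj = 0.0374), while *CHLH*, its porphyrin-binding subunit, had 2982, 1993 and 2536 CPM in *fc2* and 1805, 2498 and 2852 CPM in wt (log2FC 0.07, padj = 0.907). In the heme branch *FC2* was the only one of 7 genes that passed in edgeR (2 higher and 2 lower at an unadjusted p under 0.05), and DESeq2 called 2 lower. *HO3*, a minor heme oxygenase, had a log2FC of −0.52 (padj = 0.0525) and *HO1*, the main one, 0.14 (padj = 0.353). The 16 genes of iron homeostasis, of which 15 were tested, had 0 calls in edgeR and DESeq2, 1 higher gene at an unadjusted p under 0.05 and a median log2FC of −0.07.

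Among genes of the flower, *SEP1* was called. *SEP1* (AT5G15800), a MADS-box factor of floral organ identity, had 9.47, 11.3 and 14.6 CPM in *fc2* and 2.67, 1.67 and 2.63 CPM in wt (log2FC 2.34, SE 0.22, padj = 0.00160, and 0.0110 and 0.0113 without wt replicate 1 or 2). In *fc2 pub4* it had 3.88, 2.44 and 4.05 CPM by library size alone. Of 11 floral identity genes tested *SEP1* was the only one called by edgeR, and DESeq2 called 5. The whole list of 17 floral identity genes summed to 45.4, 58.2 and 78.1 CPM in *fc2* and 31.3, 23.2 and 29.4 CPM in wt. The petal and stamen gene *AP3* had 1.06, 2.74 and 4.11 CPM in *fc2* and 0.423, 0.0743 and 0.226 CPM in wt. No test result is given for *AP3*, as it could pass the filter on low counts only through *fc2*. *SEP3* had 2.01, 5.11 and 7.96 CPM in *fc2* and 1.01, 0.483 and 1.13 CPM in wt (padj = 0.0287). The 17 genes of the anther and pollen wall summed to 40.3, 21.0 and 49.7 CPM in *fc2* and 12.5, 13.2 and 15.5 CPM in wt. Of the 17, 11 had at most 3 counts in every wt library, and such genes could pass the filter on low counts only through *fc2*, so that no count of directions is given for the 11 tested. Among the 17, 7 had no count in any wt library and none was without counts in all *fc2* libraries. The share over all loci is not given, so these counts are a description and no result about the anther genes. Of 1717 transcription factors, 273 had no count in any wt library and 225 none in any *fc2* library. Total counts were mostly higher in the *fc2* libraries. *MS2*, a fatty acyl reductase of the pollen wall, had 4.66, 0.693 and 2.0997 CPM in *fc2* and 0, 0.0371 and 0 CPM in wt. No test result is given for *MS2*, as it could enter the test only through *fc2*. Against the level of 3 counts per wt library, *TA1* and *ATA7* were at least 9.87-fold and 5.6-fold higher in *fc2*, which is a description and no test. The plants were sampled as leaves. Of the *fc2* libraries replicate 2 was lowest for the anther genes and replicate 1 for the floral genes. The part of such tissue in the other differences was not tested. Of 16 flowering time genes tested, 0 passed (2 higher and 3 lower at an unadjusted p under 0.05 in edgeR, 0 by DESeq2, median log2FC 0.02). *SHN1*, an activator of cuticle genes, had 0.826, 0.758 and 1.02 CPM in *fc2* and 0.228, 0.0743 and 0.113 CPM in wt. No test result is given for *SHN1*, as it too could enter the test only through *fc2*. Of 14 wax and cuticle genes 0 passed in edgeR, and DESeq2 called 3 higher. At an unadjusted p under 0.05, 5 of the 14 were higher and 0 lower, against 8.41% and 6.8% of all genes, with *SHN1* counted among the 5.

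**Figure D4:**
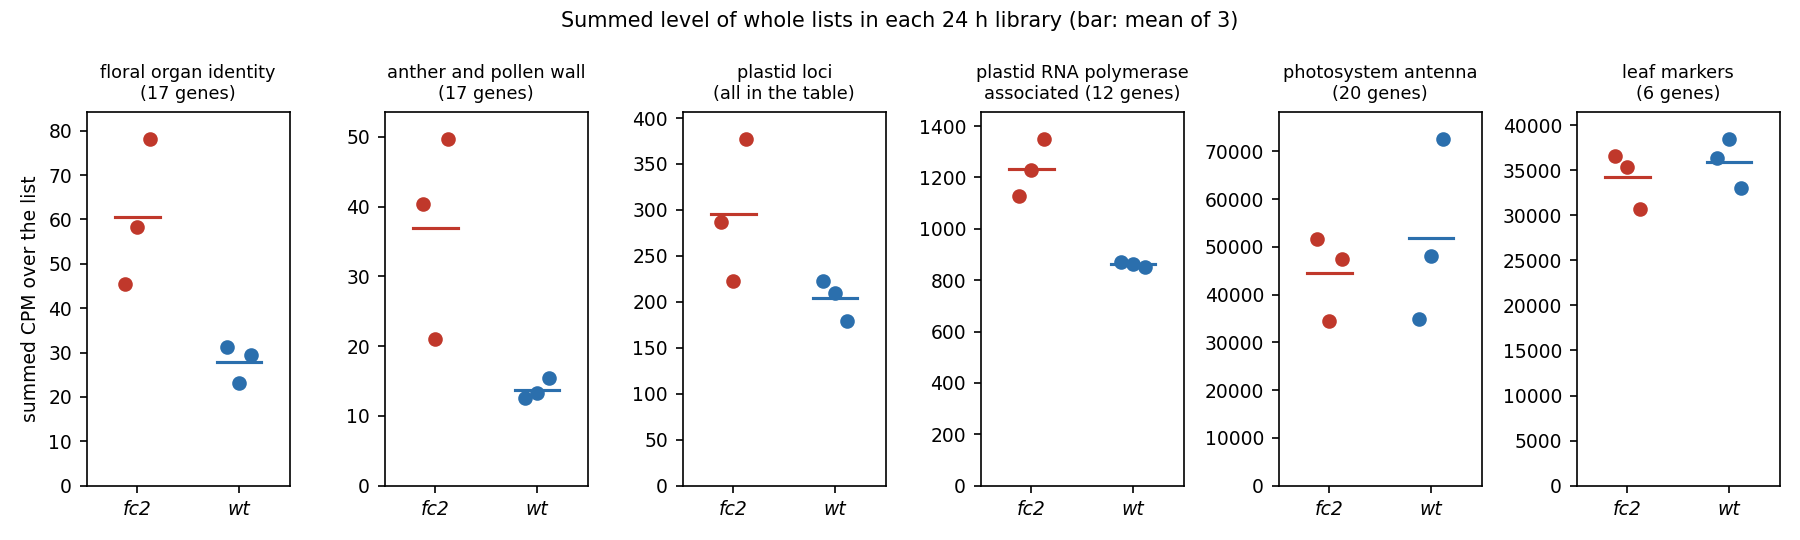
Summed CPM of 6 whole gene lists in each of the 3 *fc2* (red) and 3 wt (blue) libraries, with bars at the means and each axis from 0. The sums of the floral, anther, plastid and PAP lists are higher in *fc2*, while those of the antenna and leaf markers overlap between the groups.

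The 15 genes that fell were, apart from *FC2* and *GLK1*, of mixed function. AT4G04410, annotated as a pseudogene, had 13.01, 9.66 and 10.4 CPM in *fc2* and 23.51, 25.8 and 25.9 CPM in wt (log2FC −1.19, padj = 0.00196). AT4G13575, of unknown function, had a log2FC of −1.05 (padj = 0.00881). *CAX3* (AT3G51860), a vacuolar cation and proton exchanger, had 69.8, 83.4 and 61.3 CPM in *fc2* and 130, 154 and 117 CPM in wt (log2FC −0.91, padj = 0.00855), and *GH9B8*, an endoglucanase, had 12.7, 15.3 and 11.5 CPM in *fc2* and 26.1, 24.7 and 22.8 CPM in wt (log2FC −0.90, padj = 0.00603). *TAT3* (AT2G24850), a tyrosine aminotransferase induced by jasmonate, had 83.4, 79.4 and 65.2 CPM in *fc2* and 131, 128 and 116 CPM in wt (log2FC −0.72, padj = 0.00835). Chosen after their values were seen, the jasmonate-responsive lectin *JR1* (log2FC −0.62), the nitrile specifier *NSP1* of glucosinolate breakdown (−0.55) and the amino acid permease *AAP2* (−0.58) also fell. With 1 library left out the padj of *CAX3*, *GH9B8*, *TAT3* and *JR1* reached 0.0460, 0.0395, 0.0515 and 0.0535, and that of AT4G04410 and AT4G13575 reached 0.0185 and 0.0542.

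Defence outputs did not rise as a group. *NHL10* (AT2G35980), a gene of the NDR1/HIN1-like family that also marks senescence, was the only one of 15 genes of defence and salicylic acid output that passed. It had 5.99, 3.99 and 2.57 CPM in *fc2* and 0.684, 0.743 and 0.828 CPM in wt (log2FC 2.47, SE 0.33, padj = 0.00835), and was under 0.01 with a library left out only without *fc2* replicate 3 (0.00672, up to 0.0535 otherwise). Of the same list 1 was higher and 9 were lower at an unadjusted p under 0.05, against 8.41% and 6.8% of all genes. The median log2FC of the list was −0.32. *NIMIN1*, which binds the salicylic acid receptor protein NPR1, had 6.61, 5.71 and 6.71 CPM in *fc2* and 12.7, 10.3 and 10.8 CPM in wt (log2FC −0.83, padj = 0.0121). *PR1* had a log2FC of 0.30 (padj = 0.559), *PR2* one of −0.59 (padj = 0.162) and *PR5* one of −0.68 (padj = 0.197). For *PR2* the values were 317, 329 and 279 CPM in *fc2* and 560, 535 and 300 CPM in wt, so that wt replicate 3 lay within the *fc2* range. Of 14 jasmonate genes *TAT3* was the only one called. *LOX2*, the abundant lipoxygenase of jasmonate synthesis, had a log2FC of 0.25 (padj = 0.551), and the list had a median of −0.17. Of 10 markers of singlet oxygen signalling 0 passed, 1 was higher and 0 were lower at an unadjusted p under 0.05 in edgeR, and the median log2FC was 0.01. *OXI1*, a kinase of that signalling, had 1.77, 0.956 and 0.962 CPM in *fc2* and 0.749, 0.594 and 0.376 CPM in wt (padj = 0.197), *ZAT12* a log2FC of 0.44 (padj = 0.356) and *BAP1* one of 0.19 (padj = 0.708). By DESeq2 none of the 10 was called, while 4 of the defence genes were lower. Of 15 antioxidant genes tested 0 passed (3 higher and 2 lower at an unadjusted p under 0.05 in edgeR, 2 higher by DESeq2, median log2FC 0.11), and of 13 anthocyanin genes 0 passed in either tool, with 0 at an unadjusted p under 0.05 and a median of −0.10.

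AT5G12110 and AT5G13370 complete the most changed ones at a padj under 0.01. The first, annotated as a subunit of elongation factor 1B, had 40.8, 27.1 and 33.3 CPM in *fc2* and 14.6, 15.3 and 14.04 CPM in wt (log2FC 1.2, padj = 0.00397). AT5G13370, annotated to the GH3 family of acyl amido synthetases, had 14.2, 15.9 and 15.75 CPM in *fc2* and 8.69, 7.06 and 7.30 CPM in wt (log2FC 0.99, padj = 0.00411). The padj reached 0.0334 and 0.0297 with 1 library left out.

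The difference between *fc2* and wt in 24 h light was then set against that in cycling light, the condition that stresses *fc2*. The interaction of genotype and light was fitted over 12 libraries. At a padj under 0.01 it was found for 6381 of 20411 genes (31.3%) and for 11 of the 16 DEGs of 24 h light. The DEGs were chosen by the 24 h difference that the interaction subtracts, a choice that favours a smaller log2FC in cycling light. In 6 of the 11 the log2FC was smaller in cycling light, and these were *HSFA2*, the chaperones and *SEP1*. *HSFA2* had 27.5, 26.1 and 35.2 CPM in *fc2* and 38.8, 48.1 and 42.1 CPM in wt in cycling light, where it was lower in *fc2* (log2FC −0.53, padj = 0.00540), and the interaction was −2.84 (SE 0.26, padj = 3.05e-06). Its level in wt was thus higher in cycling light than in 24 h light in every library. *HSP70* had 155, 145 and 154 CPM in *fc2* and 80.9, 111 and 102 CPM in wt in cycling light (log2FC 0.64, interaction −2.21). In 4 of the 11 the log2FC was larger in cycling light. *NHL10* had 69.3, 75.9 and 50.7 CPM in *fc2* and 1.21, 0.948 and 0.847 CPM in wt there (log2FC 6.05, interaction 3.56, padj = 8.41e-05), and *GSTU8* had 56.5, 58.2 and 46.0 CPM in *fc2* and 1.62, 2.76 and 3.14 CPM in wt (log2FC 4.41, interaction 2.88, padj = 6.62e-06). For *FC2* the fall was smaller in cycling light (log2FC −1.72, interaction 0.52). For *OFP17* the values were nearly equal (log2FC 7.55 in cycling light, interaction 0.14, SE 0.26, padj = 0.705). *HSFA2*, *HSP70*, *HSP90.1*, *SEP1*, *NHL10* and *GSTU8* kept the interaction without any 1 of the 12 libraries, while the count of DEGs with one was 6 without wt replicate 2 or without *fc2* replicate 2 of cycling light.

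**Figure D5:**
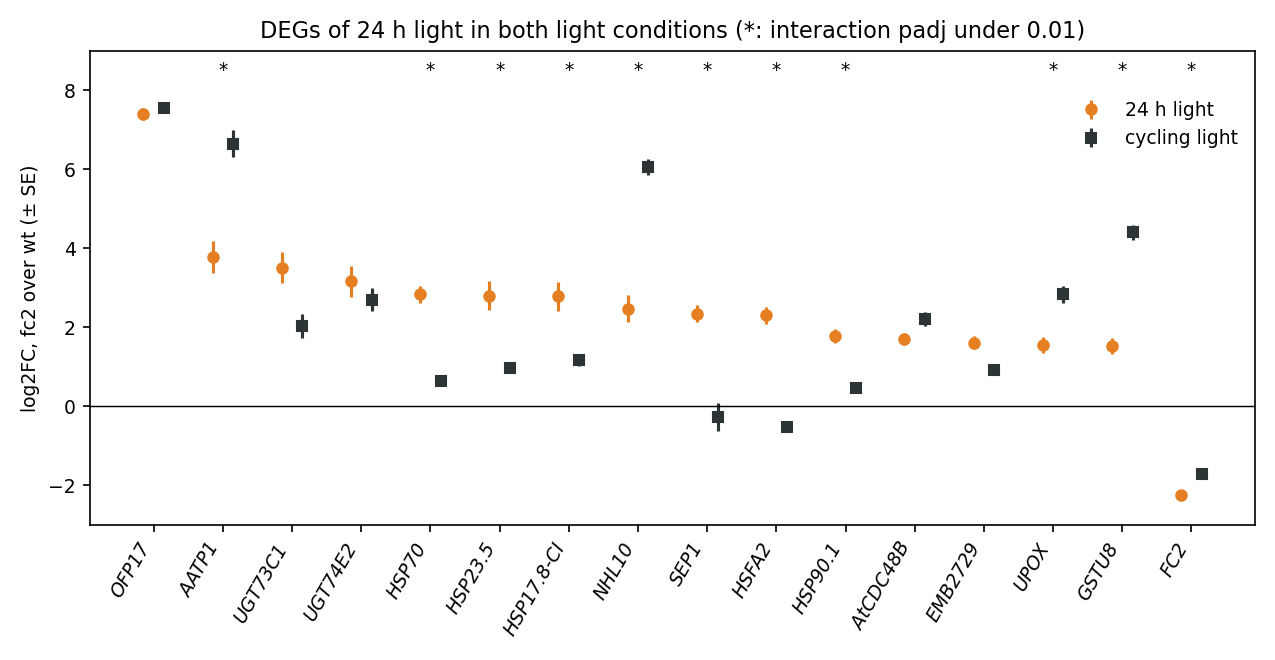
The 16 DEGs of 24 h light with their log2FC of *fc2* over wt in 24 h light (orange circles) and in cycling light (dark squares), with SE bars, and a star where the interaction had a padj under 0.01. *HSFA2* and *SEP1* are above 2 in 24 h light and below 0 in cycling light, and *AATP1* and *NHL10* exceed 6 in cycling light. For *AATP1* this rests on wt levels of 0.0412 to 0.383 CPM.

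Over all 62 called genes, an interaction was found for 37 of the 47 higher genes, 28 of them with the smaller or reversed log2FC in cycling light, and for 10 of the 15 lower genes. Of all genes tested 31.3% had one. The 62 were chosen by the 24 h difference that the interaction subtracts. That choice favours a smaller log2FC in cycling light, so these counts are descriptions. In cycling light 24 of the 47 were higher and 5 were lower in *fc2*, where 21.8% of all genes were higher and 21.0% lower. *TOC33* had 72.6, 68.3 and 78.7 CPM in *fc2* and 99.5, 100 and 98.6 CPM in wt in cycling light, so that the higher level of *fc2* in 24 h light was a lower one there (log2FC −0.43, interaction −0.99, padj = 2.14e-06). *GLK1* was lower in both, with 215, 174 and 193 CPM in *fc2* and 540, 554 and 535 CPM in wt in cycling light (log2FC −1.48, interaction −0.59, padj = 0.00116). *TAT3* and *CAX3*, lower in *fc2* in 24 h light, were higher in cycling light (log2FC 2.60 and 1.54, interactions 3.31 and 2.43).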

How the data were processed

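The authors aligned the single-end reads of 50 bases from a stranded mRNA kit to TAIR10 with HISAT2 2.1.0 and assembled them with StringTie 1.3.4, per the methods and the submitters' processing notes, and the authors deposited raw counts for 33602 loci, with no normalization. Whether counting used strand, and how overlapping genes and repeated sequence were treated, is not given in the sources used here. Counts were filtered by edgeR's filterByExpr and scaled by TMM. *fc2* was tested against wt on the 6 libraries of 24 h light by the quasi-likelihood test of edgeR 4.0.16 (limma 3.58.1, R 4.3.3), two-sided, with Benjamini-Hochberg adjustment over all genes tested. The common biological coefficient of variation was 10.3%. The interaction was fitted on 12 libraries. CPM of cycling light come from the scaling of those 12. No filter, a stricter filter, other scalings, DESeq2 1.42.0, all 18 libraries, a replicate block, a padj of 0.05 and each library left out were tried. Both tools were also run on simulated counts, with limits to be met set for edgeR only. Transcription factors are those of a family table given with the study. Tables and figures were made with Python 3.11.15, pandas 2.3.3 and matplotlib 3.10.9. No pair of replicates was a duplicate, with a chi-square of 10.5 to 40.3 per gene between them. Replicates are separate pools of plants, and no batch is labelled.

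Genes named were all DEGs, the 15 next by absolute log2FC at a padj under 0.01, *FC1*, *OFP17* and the 5 genes on each side of *FC2*, list members at a padj under 0.01 and up to 4 others per list. Others are marked where they stand. The lists for plastid RNA polymerase, sigma factors, import and chloroplast development were added after values were seen. The comparison, the other lists and the tests were chosen with earlier results of these data known. Positions and sequences are from RefSeq TAIR10.1, which had a row for 32835 of the loci.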

Additional observations from a re-analysis of the deposited data

Results flagged for a closer look

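For 11 of the 16 DEGs of 24 h light the difference of *fc2* over wt itself differed between cycling and 24 h light, by the interaction term of edgeR's quasi-likelihood test (padj under 0.01, as for 31.3% of all genes). The log2FC was larger in cycling light by 2.86 for *AATP1*, 3.56 for *NHL10*, 1.28 for *UPOX* and 2.88 for *GSTU8*. It was smaller there for the heat shock genes, with interactions of −2.21 for *HSP70*, −1.84 for *HSP23.5*, −1.63 for *HSP17.8-CI*, −2.84 for *HSFA2* and −1.32 for *HSP90.1*, and for *SEP1* with −2.63. For *FC2* it was 0.52, a smaller fall in cycling light. Adjusted p-values were 3.05e-06 (*HSFA2*) to 0.00896 (*AATP1*). With 1 of the 12 libraries left out, 6 to 11 of the 11 kept a padj under 0.01. *HSFA2*, *HSP70*, *HSP90.1*, *SEP1*, *NHL10* and *GSTU8* kept it in every such fit. *AATP1*, *UPOX*, *FC2*, *HSP23.5* and *HSP17.8-CI* lost it in several. In wt in cycling light *AATP1* had 0.220, 0.0412 and 0.383 CPM, with replicate 2 below the level of 3 counts, so the size of its interaction is uncertain. Choosing the DEGs by their 24 h difference, which the interaction subtracts, favours a smaller log2FC in cycling light.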

How the results depend on the processing

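DEGs numbered 15 higher and 1 lower, and genes at a padj under 0.01 were 47 higher and 15 lower. In the same order the counts were 39, 3, 153 and 50 with no filter on low counts, 54, 7, 362 and 151 with DESeq2, 31, 6, 251 and 53 in a fit of all 18 libraries and 52, 9, 348 and 134 at a padj under 0.05. With the replicate number as a block they were 14, 2, 30 and 14, and 31 of the 62 genes and 11 of the 16 DEGs kept their call. Same-numbered libraries did not deviate together (r = −0.10, −0.02 and 0.13), so that the numbers are not treated as pairs. With 1 library left out the ranges were 1 to 20, 1 to 2, 1 to 36 and 1 to 20. The count of DEGs with an interaction was 11, and 6 to 11 with 1 library left out. DESeq2's size factors, library size alone and at least 10 counts in every library kept all these counts within 1.5 times. Under the settings of tool, scaling, filter and block all 432 values of the called genes kept their direction and 392 their call, and with 1 library left out 372 of 372 and 97. The groups of the called genes do not overlap, so the kept direction adds no support to the calls. *AATP1*, *UGT73C1*, *SIP4*, *HSP17.6II*, *HSP17.6A*, *AP3*, *SEP2*, *TA1*, *MS2* and *SHN1* have no value with 10 counts in every library.

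The sign of some uncalled genes turned. *TCL2* was at 0.018 with library size alone. With 1 library left out log2FC ran between −0.14 and 0.059 for AT2G30350, −0.86 and 0.26 for *SIP4*, −0.25 and 0.18 for *CHAL*, −0.17 and 0.12 for *TCL2*, −0.28 and 0.042 for *HEMA1* and −0.10 and 0.22 for *CHLH*. Depth limits genes near 3 counts per library, 0.0916 CPM in *fc2* and 0.107 CPM in wt, where no fold is given. The cause of these shifts was not tested.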
